A study of Rattus norvegicus with 24 samples.

Results

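The genes of the cell-cell junctions that seal the lung epithelium were examined in right lung tissue of 24 adult male Wistar rats, 1 microarray per rat. The members were taken by gene symbol: the claudin genes Cldn1, Cldn4, Cldn7 and Cldn18, the occludin gene Ocln, the tight junction scaffold gene Tjp1 and the E-cadherin gene Cdh1. Of 9 symbols sought, these 7 were found among 19239 features, of which 16592 carried a symbol. Cldn3 and Cldn5 were not analysed here.

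Mechanical ventilation was planned for 6 h in all rats. The 4 groups of 6 rats crossed the state of the brain, damaged (BD) or not (NBD), with the ventilation setting. LVT/OLPEEP was a low tidal volume of 6 mL/kg with an end-expiratory pressure chosen, after recruitment of the lung, at the lowest elastance of the respiratory system. HVT/LPEEP was a high tidal volume of 12 mL/kg with a low end-expiratory pressure. BD was made by inflating a balloon in the epidural space, and NBD rats had no opening of the skull, so NBD was not a sham operation. Per the methods, 2 of the BD HVT/LPEEP rats on arrays had not survived the ventilation period, and the labels do not say which. The question was whether the ventilation setting and brain damage altered the mRNA of junction genes in the lung.

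Tight junctions encircle epithelial cells near the airspace, where claudins of neighbouring cells meet and set how easily water, ions and proteins pass between the cells. Occludin lies in the same strands, and zonula occludens proteins bind the claudins from inside and tie them to the actin skeleton. Below the tight junction, E-cadherin holds epithelial cells together in the adherens junction. In the alveolus Cldn18 is a main claudin of the epithelium, Cldn4 is known as a sealing claudin that responds to lung injury in rodents, and Cldn7 is shared by airway and alveolar epithelium, whereas Cldn1 is a claudin of airway and stratified epithelia.

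The promoters of Cldn7 and Ocln are shown because, among the member windows given, only these hold E-boxes. Repressors of epithelial genes such as the Snai and Zeb factors can bind to this motif. Cldn7 was the member called in the BD ventilation comparison, close to the threshold (limma adjusted p = 0.0467), and Ocln was called in no comparison of the deposited values. A link between E-boxes and calls was not tested. Each run covers 250 bases before to 10 bases after the RefSeq start in build GRCr8, 5′ to 3′ on the strand of the gene. Capitals mark the E-box CACCTG, or CAGGTG where it lies on the other strand. Cldn7 is at chr10:55188420-55188679 on the + strand and Ocln at chr2:33441189-33441448 on the - strand.
Cldn7 promoter: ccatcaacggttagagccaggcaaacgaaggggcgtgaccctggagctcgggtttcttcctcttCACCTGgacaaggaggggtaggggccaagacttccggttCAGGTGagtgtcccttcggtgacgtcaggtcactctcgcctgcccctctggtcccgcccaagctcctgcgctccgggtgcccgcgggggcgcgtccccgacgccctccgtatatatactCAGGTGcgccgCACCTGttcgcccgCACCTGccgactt
Ocln promoter: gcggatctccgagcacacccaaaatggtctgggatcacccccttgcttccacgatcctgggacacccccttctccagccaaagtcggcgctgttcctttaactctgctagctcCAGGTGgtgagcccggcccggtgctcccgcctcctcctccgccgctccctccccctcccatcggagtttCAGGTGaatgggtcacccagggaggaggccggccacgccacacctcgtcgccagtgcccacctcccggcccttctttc
Windows of 300 bases, reaching 50 bases past the start, were given for 5 of the 7 members, and those of Cldn4 and Cdh1 were not analysed here. The Cldn7 window held 5 E-boxes, whose first bases lay at -186, -147, -28, -17 and -3 from the start. Only 4 of 33469 rat windows (0.012%) held at least 5. In the Ocln window there were 2, at -137 and -68, and 2.52% of all windows held at least 2. The windows of Cldn1, Cldn18 and Tjp1 had no E-box, which 18.8% of all windows had. The AP-1 motif TGANTCA, searched on both strands, was found in none of the 5 windows and in 7.33% of all windows. These matches describe letters and do not show that a factor was bound. Whether transcription in the lung starts at each RefSeq start was not tested.

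Values are log2 array values as deposited, already quantile-normalized by the authors, with a median of 9.18 and a range of 5.73 to 14.53 on every array. Levels are compared between rats and not between genes, because each feature has its own probes. In the limma fit to all 24 arrays a gene was called at an adjusted p under 0.05, with the Benjamini-Hochberg adjustment over all 19239 features. The lung identity of the tissue was borne out by the defining markers: over the 24 rats the surfactant gene Sftpc was at 14.24 to 14.41, the alveolar type I marker Ager at 13.29 to 13.60 and the club cell marker Scgb1a1 at 13.67 to 14.16. In whole tissue, fewer cells of a type and less RNA per cell cannot be told apart. Among the arrays, 2 stood apart. NBD HVT/LPEEP rat 12 correlated least with the other rats of its group (mean 0.951) and BD LVT/OLPEEP rat 16 next to least (0.955), and the next rat was at 0.969. In rat 16 the mean of 14 skeletal muscle markers lay 3.43 above their mean over all rats on the log2 scale, against -0.29 to 0.16 in the other rats.

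Cldn4 and Cldn7 had higher means under HVT/LPEEP than under LVT/OLPEEP with and without brain damage, by 0.51 to 0.82 on the log2 scale, although only Cldn7 in BD passed the test within a brain status. Cldn18 had lower means in BD than in NBD under both ventilation settings, by -0.17 each, and passed the test under HVT/LPEEP. Cldn1 had its lowest group mean in BD HVT/LPEEP (8.55), although BD LVT/OLPEEP rat 7 lay at 8.33. Ocln, Tjp1 and Cdh1 were called in none of these comparisons.

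**Figure D1:**
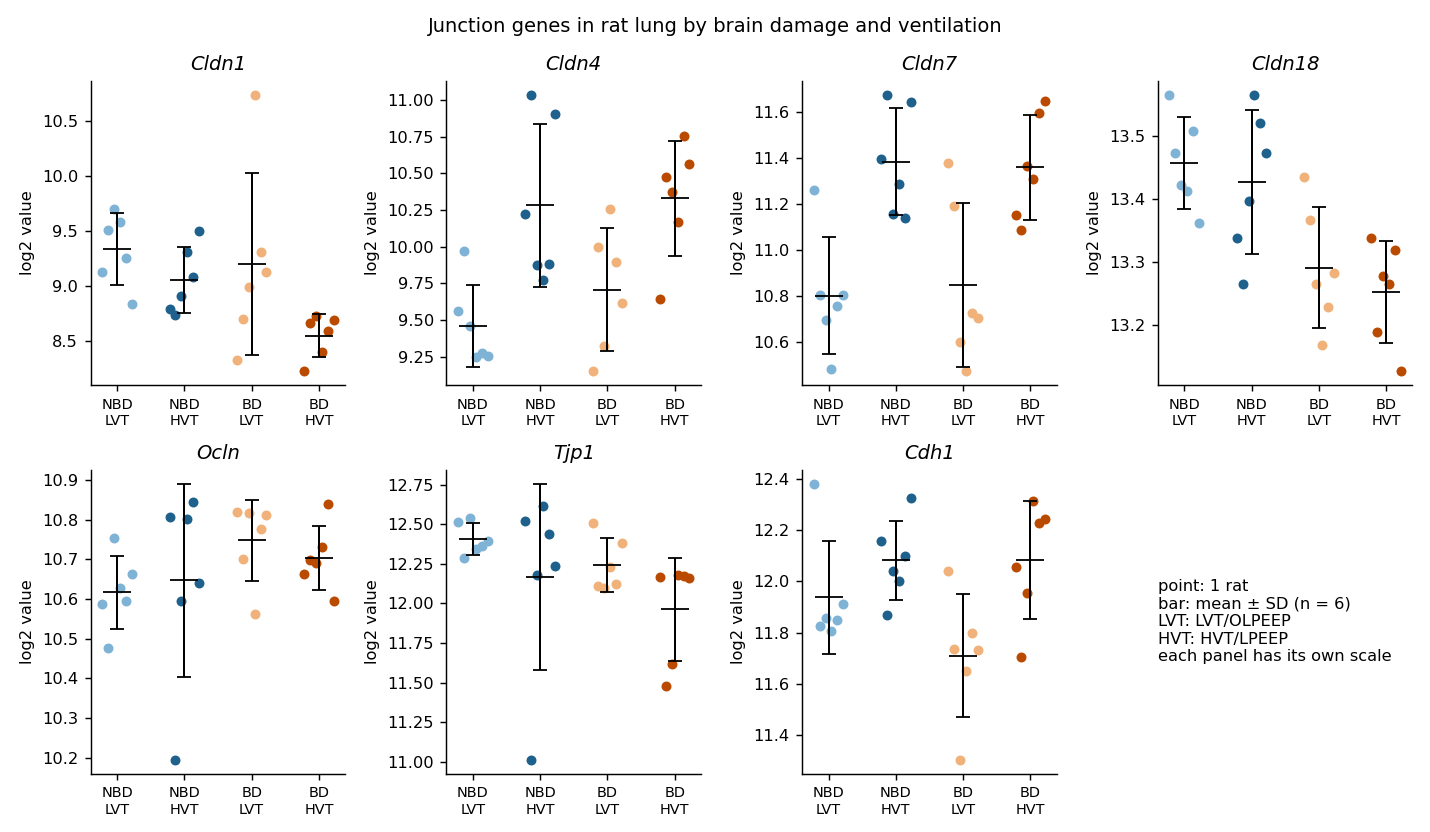
Log2 value of each of the 7 genes (vertical axis, own scale per panel) in each rat of the 4 groups (horizontal axis), with 6 rats per group, bars giving mean and SD. Cldn4 and Cldn7 sit higher in both HVT/LPEEP groups, Cldn18 sits lower in both BD groups, 1 BD LVT/OLPEEP rat is high for Cldn1 (10.74) and 1 NBD HVT/LPEEP rat is low for Tjp1 (11.01).

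Cldn7 had a lowest, median and highest value of 10.48, 10.78 and 11.26 in NBD LVT/OLPEEP and of 11.14, 11.34 and 11.67 in NBD HVT/LPEEP. In BD these values were 10.47, 10.72 and 11.38 under LVT/OLPEEP and 11.09, 11.34 and 11.65 under HVT/LPEEP. The groups overlapped only through the upper LVT/OLPEEP rats: 4 of 6 NBD HVT/LPEEP rats lay above all NBD LVT/OLPEEP rats, and 2 of 6 BD HVT/LPEEP rats lay above all BD LVT/OLPEEP rats. In BD, Cldn7 was 1.43-fold higher under HVT/LPEEP, a log2 difference of 0.51 (SE 0.151, 95% confidence interval 0.20 to 0.83, limma adjusted p = 0.0467). In NBD the log2 difference was 0.58 (SE 0.151, interval 0.27 to 0.90) and limma's adjusted p = 0.253 over all features. The difference between these ventilation effects was -0.07 (interval -0.51 to 0.38, limma adjusted p = 0.918), so no difference between BD and NBD was shown within that interval.

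The call of Cldn7 within BD was close to the threshold. It was kept when 9 of the 24 rats were left out in turn and lost with 15 (adjusted p from 0.0136 to 0.103), and the difference stayed between 0.44 and 0.62. Without rat 16 it was 0.44 (limma adjusted p = 0.103), and in none of the 15 ways of leaving out a pair of BD HVT/LPEEP rats, any of which could be the non-survivors, did it pass. The ventilation effect averaged over BD and NBD, a contrast added after the data were seen, was 0.55 for Cldn7 (SE 0.107, 1.46-fold, limma adjusted p = 0.00703). That call was kept without each of the 24 rats (adjusted p from 0.00185 to 0.0161) and without each of the 15 pairs.

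Cldn4 ran from 9.25 through a median of 9.37 to 9.97 in NBD LVT/OLPEEP and from 9.78 through 10.05 to 11.04 in NBD HVT/LPEEP. With brain damage it ran from 9.15 through 9.76 to 10.26 under LVT/OLPEEP and from 9.64 through 10.42 to 10.76 under HVT/LPEEP. In both pairs the HVT/LPEEP rats lay higher with some overlap, and 3 of 6 NBD and 4 of 6 BD HVT/LPEEP rats were above all LVT/OLPEEP rats of the same brain status. The log2 difference was 0.82 in NBD (SE 0.232, limma adjusted p = 0.253) and 0.62 in BD (SE 0.232, interval 0.14 to 1.103, adjusted p = 0.117), and neither passed the test. These effects differed by -0.20 (interval -0.88 to 0.48, limma adjusted p = 0.823). Averaged over BD and NBD the log2 difference was 0.72 (SE 0.164, 1.65-fold, limma adjusted p = 0.0151), the largest of the 7 members, and it passed without each of the 24 rats and in 13 of 15 pairs left out. The interval for Cldn4 between BD and NBD under HVT/LPEEP was -0.43 to 0.53 around a difference of 0.05.

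Cldn18 was measured near the top of the scale, with a mean value above that of 99.81% of features, and its range over all rats was narrow. Its lowest, median and highest values were 13.36, 13.45 and 13.56 in NBD LVT/OLPEEP and 13.26, 13.43 and 13.56 in NBD HVT/LPEEP. The corresponding values were 13.17, 13.27 and 13.43 in BD LVT/OLPEEP and 13.13, 13.27 and 13.34 in BD HVT/LPEEP. Both BD groups lay lower with overlap, 4 of 6 BD rats being below all NBD rats under LVT/OLPEEP and 2 of 6 under HVT/LPEEP. Under HVT/LPEEP the log2 difference of BD from NBD was -0.17 (SE 0.0555, interval -0.29 to -0.06, limma adjusted p = 0.0381), and under LVT/OLPEEP it was also -0.17 (interval -0.28 to -0.05, adjusted p = 0.197). The ventilation effects were -0.04 in BD and -0.03 in NBD, with intervals from -0.15 to 0.08 in both.

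The call of Cldn18 under HVT/LPEEP was kept when 17 of the 24 rats were left out in turn (adjusted p from 0.0125 to 0.0970) and in 2 of 15 pairs, and was lost when only the 12 rats compared were fitted (limma adjusted p = 0.0928). Averaged over both ventilation settings, in the other contrast added after the data were seen, Cldn18 was lower in BD by a log2 difference of -0.17 (SE 0.0392, limma adjusted p = 0.00549), which passed without each of the 24 rats and in all 15 pairs. Under HVT/LPEEP, 5 of 15 alveolar type I markers and 4 of 11 type II markers were lower in BD, beside 8.5% of all features, and none was higher. Under LVT/OLPEEP none of either list was called, beside 0.738% of all features. The mean of the type II list over its genes, relative to all rats, was -0.02 to 0.16 in NBD HVT/LPEEP and -0.41 to -0.04 in BD HVT/LPEEP, and that of the type I list -0.40 to 0.21 and -0.30 to -0.10. Their part in the Cldn18 difference was not tested. Relative to the mean of 11 general epithelial markers in the same rat, the Cldn18 difference under HVT/LPEEP was -0.02 (limma adjusted p = 0.826). The median of all features moved by 0.14 there. Under LVT/OLPEEP the Cldn18 difference on this scale was -0.12 (limma adjusted p = 0.673, median of all features 0.05). Averaged over both settings it was -0.07 (0.341, median 0.10). Cldn18 was called on this scale for BD HVT/LPEEP against NBD LVT/OLPEEP (-0.23, limma adjusted p = 0.0453, median -0.03). It was also called for the averaged ventilation effect (-0.16, 0.0357, median -0.13). On this scale 4571 features were called for the averaged ventilation effect, against 1086 on the deposited values.

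Cldn1 ran from 8.83 through a median of 9.38 to 9.70 in NBD LVT/OLPEEP, and from 8.73 through 9.00 to 9.50 in NBD HVT/LPEEP. In BD LVT/OLPEEP it ran from 8.33 through 9.06 to 10.74, where the highest value was rat 16, and in BD HVT/LPEEP from 8.22 through 8.63 to 8.72. All 6 BD HVT/LPEEP rats lay below all 6 NBD HVT/LPEEP rats and below all 6 NBD LVT/OLPEEP rats. Under HVT/LPEEP, 3.64% of all features lay lower in BD without overlap, and Cldn1 was the only one of the 7 members. The log2 difference there was -0.51 (SE 0.264, limma adjusted p = 0.217) and did not pass in the fit that shares 1 spread over the 4 groups. The SD was 0.83 in BD LVT/OLPEEP and 0.20 to 0.33 in the other groups. Fitted on these 12 rats alone the adjusted p was 0.0355, and without rat 16 it was 0.0463. The ventilation effect within BD was -0.65 with all rats (limma adjusted p = 0.150) and -0.34 without rat 16, and neither value was called.

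**Figure D2:**
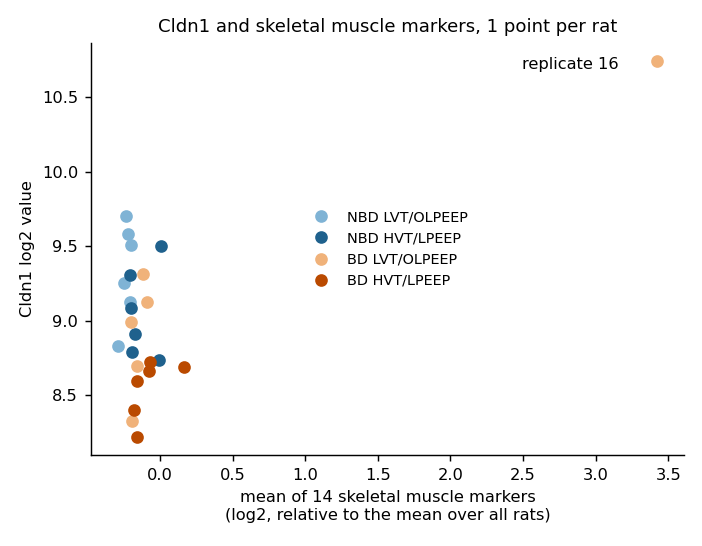
Cldn1 log2 value of each rat (vertical axis) against the mean of 14 skeletal muscle markers relative to all rats (horizontal axis, log2), coloured by group. The 23 other rats lie between -0.29 and 0.16 on the marker axis and up to 9.70 for Cldn1, and BD LVT/OLPEEP replicate 16 lies at 3.43 and 10.74.

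Rat 16 was also set apart in genes of the desmosome, the spot-like junction that is abundant in stratified epithelia: 9 of 12 desmosome genes were higher in it than in any other rat, and their mean lay at 0.87 relative to all rats, against -0.26 to 0.12 in the others. Pkp1, a desmosomal plaque gene, was at 10.91 in rat 16 and at most 8.86 elsewhere, and the desmosomal cadherin gene Dsc3 was at 9.91 against at most 7.68. Mesothelial markers were at 0.79 against at most 0.30, whereas Cldn7 was lowest of all rats in rat 16 (10.47, with the next rat at 10.48) and the other 5 members lay within the range of the other rats. The part of these tissues in the Cldn1 value was not tested.

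Ocln, which encodes another strand protein of the tight junction, was called in no comparison of the deposited values. Its lowest, median and highest values were 10.48, 10.61 and 10.75 in NBD LVT/OLPEEP, and 10.19, 10.72 and 10.85 in NBD HVT/LPEEP. In BD they were 10.56, 10.79 and 10.82 under LVT/OLPEEP and 10.59, 10.70 and 10.84 under HVT/LPEEP. All groups overlapped. The ventilation differences were -0.04 in BD (interval -0.22 to 0.13) and 0.03 in NBD (interval -0.14 to 0.20), so that changes beyond about 0.22 lie outside both intervals. The lowest Ocln value of the series, 10.19, came from NBD HVT/LPEEP rat 12. Relative to general epithelial markers, Ocln was called for BD LVT/OLPEEP against NBD HVT/LPEEP (0.33, limma adjusted p = 0.0262). The median of all features moved by 0.22 there, and 7396 features were called, against 229 on the deposited values.

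Tjp1, which encodes zonula occludens 1, ran from 12.29 through 12.38 to 12.54 in NBD LVT/OLPEEP and from 11.01 through 12.34 to 12.61 in NBD HVT/LPEEP, where rat 12 held the lowest value. In BD it ran from 12.10 through 12.18 to 12.51 under LVT/OLPEEP and from 11.48 through 12.16 to 12.18 under HVT/LPEEP. The BD HVT/LPEEP rats all lay below the NBD LVT/OLPEEP rats. In the limma fit to all 24 rats with equal weights no contrast called Tjp1, and the difference of BD from NBD under HVT/LPEEP was -0.21 (SE 0.193, limma adjusted p = 0.545). Without NBD HVT/LPEEP rat 12 this difference was -0.44 and was called (limma adjusted p = 0.0192). Leaving out BD HVT/LPEEP rats 22 and 24 together brought this difference to 0.0029. BD HVT/LPEEP against NBD LVT/OLPEEP, with a Tjp1 difference of -0.44 (limma adjusted p = 0.114), was called when only these 12 rats were fitted (0.0246) and with array weights (0.0259). Tjp1 was also called for the averaged brain damage effect with array weights (limma adjusted p = 0.0379). Relative to epithelial markers it was called for the averaged ventilation effect (limma adjusted p = 0.0439). On that scale 4571 features were called for this effect, against 1086 on the deposited values. Without rat 12 Tjp1 was called for the averaged brain damage effect (-0.30, limma adjusted p = 0.0185). BD HVT/LPEEP against NBD LVT/OLPEEP was then also called for Tjp1 (-0.44, limma adjusted p = 0.00887).

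Cdh1 ran from 11.81 through 11.85 to 12.38 in NBD LVT/OLPEEP and from 11.87 through 12.07 to 12.33 in NBD HVT/LPEEP. In BD it ran from 11.30 through 11.74 to 12.04 under LVT/OLPEEP and from 11.70 through 12.14 to 12.31 under HVT/LPEEP. BD LVT/OLPEEP was the lowest group, with 5 of its 6 rats below all NBD LVT/OLPEEP rats, and 4 of 6 BD HVT/LPEEP rats lay above all of it. The ventilation difference in BD was 0.37 (SE 0.119, interval 0.13 to 0.62, limma adjusted p = 0.0645) and in NBD 0.14 (interval -0.10 to 0.39, adjusted p = 0.548), and the difference between them was 0.23 (interval -0.12 to 0.58, adjusted p = 0.565). Cdh1 in BD passed the test with array weights (0.46, limma adjusted p = 0.0188) and without NBD LVT/OLPEEP rat 5 (0.0369), BD HVT/LPEEP rat 22 (0.0330) or BD LVT/OLPEEP rat 7 (0.0299).

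**Figure D3:**
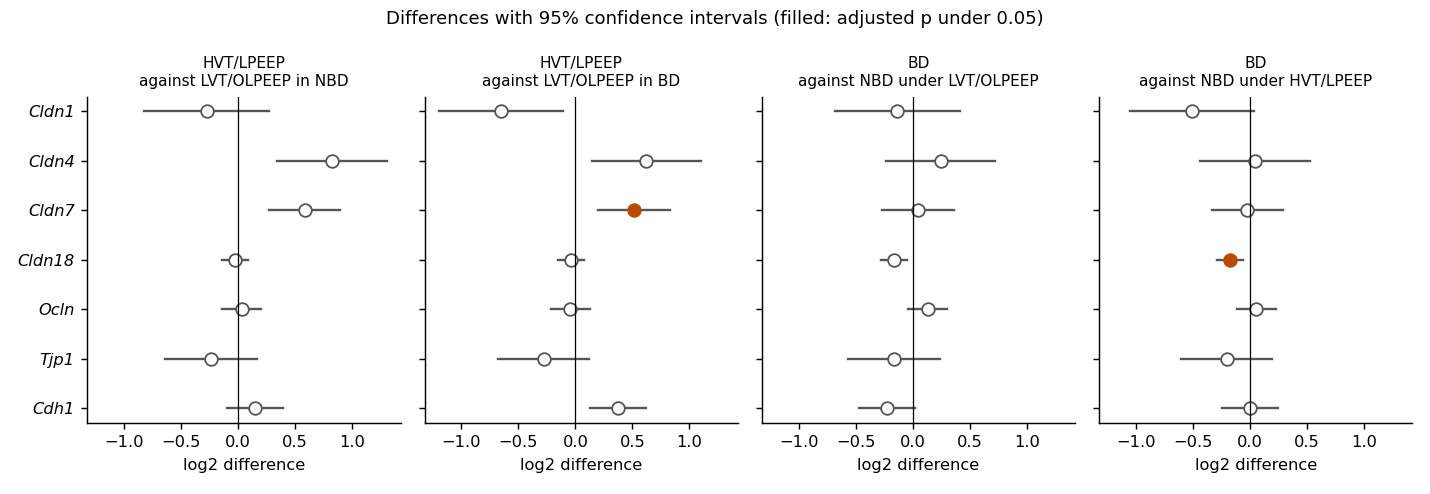
Log2 difference of each of the 7 genes with its 95% confidence interval (horizontal axis) in 4 comparisons, from the fit to all 24 rats, where filled points have an adjusted p under 0.05. Filled are Cldn7 for ventilation in BD (0.51) and Cldn18 for BD against NBD under HVT/LPEEP (-0.17), and Cldn4 has a similar place to Cldn7 in both ventilation panels without passing.

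Counted over the members, 1 of 7 was higher and 0 lower for HVT/LPEEP against LVT/OLPEEP in BD, where limma called 5.67% of all features. In NBD 0 of 7 were called, as were 0% of all features, while 2 members (Cldn4 and Cldn7) and 16.3% of all features had an unadjusted p under 0.05, and 0 members were called by the fit without moderation. For BD against NBD, 0 of 7 were higher and 1 of 7 was lower under HVT/LPEEP (14.4% of all features called, 8.5% lower), and 0 of 7 were called under LVT/OLPEEP (0.738% called), where Cldn18 and 11.6% of features had an unadjusted p under 0.05 and the fit without moderation called 0. The difference of the ventilation effects was called for 0 of 7 members and 0.0104% of features, with 0 members and 13.7% of features at an unadjusted p under 0.05, and 0 members without moderation. There were only 7 members, and whether these counts differ from the shares over all features was not tested. The median absolute log2 difference of the members for ventilation was 0.37 in BD and 0.24 in NBD, beside 0.091 and 0.087 over all features, and their median signed difference was -0.04 and 0.03. The absolute median in NBD was the value of Tjp1, whose difference there was -0.24 with all rats and -0.007 without rat 12.

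In the order of the 4 group means most neighbours did not differ beyond their spread. For Cldn4 and Cldn7 the HVT/LPEEP groups were the upper pair and the LVT/OLPEEP groups the lower pair. Between the pairs, the BD HVT/LPEEP and BD LVT/OLPEEP means of Cldn7, 11.36 and 10.84, were the only neighbours of any member that the test separated. For Cldn18 the NBD groups were the upper pair. The extremes of the design, BD HVT/LPEEP and NBD LVT/OLPEEP, differed by a called amount for 4 of 7 members, where 19% of all features were called: Cldn4 was higher by 0.87 (1.82-fold, limma adjusted p = 0.0110) and Cldn7 by 0.56 (0.0118), and Cldn1 differed by -0.79 (0.0394) and Cldn18 by -0.20 (0.0120). In this comparison 3 members (Cldn1, Cldn18 and Tjp1) had groups that did not overlap, all lower, as did 5.93% of all features. The call of Cldn1 was kept when 15 of the 24 rats were left out in turn and those of Cldn4, Cldn7 and Cldn18 with all 24. BD LVT/OLPEEP against NBD HVT/LPEEP called 0 of 7 members (1.19% of features), with 4 members and 14.6% of features at an unadjusted p under 0.05 and 0 members without moderation. Of the contrasts added after the data were seen, the averaged ventilation effect called 2 of 7 members, both higher (5.64% of features, 3.2% higher), and the averaged brain damage effect 1 of 7, lower (12.9%, 7.47% lower).

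**Figure D4:**
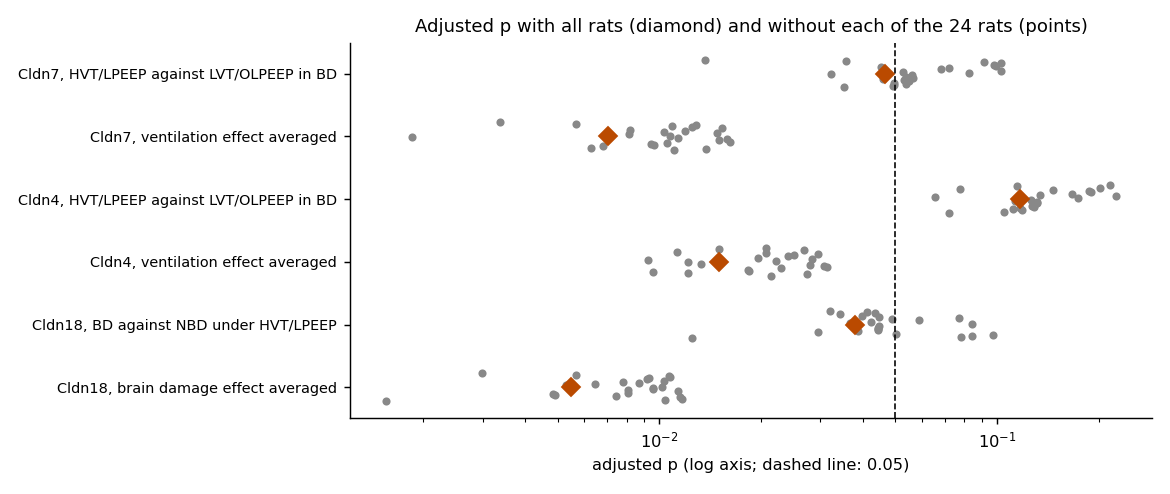
Adjusted p (horizontal log axis, dashed line at 0.05) of 6 results for Cldn7, Cldn4 and Cldn18, with all rats as a diamond and without each of the 24 rats as points. The results within 1 brain status or 1 ventilation setting straddle or miss the line, and the 3 averaged over the other factor stay left of it, the highest at 0.0314 for Cldn4.

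Across rats, after the group means were subtracted, Cldn7 varied with Cdh1 (Pearson r = 0.64 over 24 rats, and 0.78 without rats 12 and 16), and Ocln with Tjp1 (0.75, and 0.40 without them). Cldn4 and Cldn7 shared less (0.30, and 0.39 without rats 12 and 16). These values are descriptions over arrays that share groups and tissue makeup. By the same measure the genes most like Cldn7 were Krt8, an epithelial keratin gene (0.86), RGD1304580 (0.86) and Lsr, a gene of tricellular tight junctions (0.85), and without rats 12 and 16 these were 0.83, 0.82 and 0.86. Krt8 had a log2 difference of 0.79 for ventilation in BD (limma adjusted p = 0.00692) and 0.68 in NBD (adjusted p = 0.246). Those most like Cldn4 were P4htm (0.87), Kctd15 (0.85) and Bmp7 (0.84), and those most like Cldn18 were Tgoln1 (0.79), the tricellulin gene Marveld2 (0.79) and Veph1 (0.78). The 3 most like Cldn1 included the muscle genes Phka1 (0.91) and Pfkm (0.88) besides Asb11 (0.88), with 0.77, 0.76 and 0.67 without rats 12 and 16. Of the 3 closest genes, Lsr for Cldn7 and Tgoln1 for Cldn18 were also among the closest 3 without those rats, and none was for Cldn4 or Cldn1.

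Other genes of the tight junction were called in both directions in BD. Of 25 other tight junction genes found of 30 listed, 2 were higher and 4 lower under HVT/LPEEP in BD, beside 2.85% and 2.82% of all features. Lsr rose by 0.45 (SE 0.101, limma adjusted p = 0.0120), and Marveld3, a relative of occludin, by 0.28 (adjusted p = 0.0423). The 4 lower genes were Cgn, the cytoplasmic linker cingulin (-0.37, limma adjusted p = 0.00724), the polarity kinase gene Prkcz (-0.37, 0.0165), the junctional adhesion molecule gene F11r (-0.31, 0.0172) and the scaffold gene Magi1 (-0.35, 0.0317). In NBD none of the 25 was called, although Marveld3 had the same log2 difference (0.28) and Lsr one of 0.32. Of the 25, 6 had an unadjusted p under 0.05 in NBD, beside 16.3% of all features. No difference of ventilation effects was called among the 25.

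Under HVT/LPEEP 4 of these 25 genes were lower in BD than in NBD and 0 higher, beside 8.5% of all features called lower and 3.64% lower without overlap. Prkcz lay between 9.93 and 10.15 in BD HVT/LPEEP and between 10.19 and 10.68 in NBD HVT/LPEEP, so the groups did not overlap, and the log2 difference was -0.50 (SE 0.0871, limma adjusted p = 0.000586). F11r lay between 11.58 and 11.82 in BD and between 11.92 and 12.29 in NBD under this setting, again without overlap (-0.36, limma adjusted p = 0.00275). Cgn (-0.24, adjusted p = 0.0345) and Sympk, whose protein is found at junctions and in the nucleus (-0.29, adjusted p = 0.0428), followed. Without rat 12 the counts were 2 higher and 6 lower for BD ventilation, and 1 higher and 5 lower for BD against NBD under HVT/LPEEP. Without rat 16 they were 1 and 4, and 0 and 4. Over all features in either direction, 2771 were called for BD against NBD under HVT/LPEEP with all rats. Without rat 12 this total was 3143 and without rat 16 it was 2795. For BD ventilation it was 1091 with all rats and 913 without rat 16, and the total without rat 12 is not given here.

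Among 15 other claudins none was called for ventilation in BD or NBD, with 3 and 4 at an unadjusted p under 0.05. In BD against NBD under HVT/LPEEP 2 were lower and 0 higher, beside 8.5% of all features lower. Cldn12, a widely expressed claudin, was 9.75 to 10.01 in BD HVT/LPEEP and 10.04 to 10.32 in NBD HVT/LPEEP (-0.30, SE 0.0567, limma adjusted p = 0.00126), and Cldn19, a claudin known from the kidney, was 7.998 to 8.25 and 8.19 to 8.64 (-0.26, adjusted p = 0.0112). Cldn12 did not overlap between these groups, as 3.64% of all features lay lower without overlap, and Cldn19 did. Without rats 12 and 16 together, 2 of the 15 (Cldn10 and Cldn12) were lower for BD ventilation, and the total over all features in that fit is not given here.

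Of 16 other adherens junction genes, none was called for ventilation in BD or NBD or for BD against NBD under LVT/OLPEEP. Under HVT/LPEEP only Lima1, an actin-binding partner of the cadherin complex, was called, higher in BD by 0.33 (limma adjusted p = 0.00688). Without rat 12 the adherens counts were 1 higher and 2 lower for BD ventilation and 2 higher and 2 lower for BD against NBD under HVT/LPEEP. Over all features 3143 were called in the latter without rat 12, against 2771 with all rats. Of 12 desmosome genes none was called in any of these contrasts, with 3 at an unadjusted p under 0.05 for BD ventilation and 4 for BD against NBD under HVT/LPEEP. Without rat 16, 1 desmosome gene was higher for BD ventilation, and 1 was higher and 2 were lower for BD against NBD under HVT/LPEEP. In that fit 913 and 2795 of all features were called in these contrasts, in either direction.

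Of 22 regulators of junctions, Elf3, an epithelial transcription factor of the ETS family, was higher in BD under HVT/LPEEP by 0.86 (SE 0.233, limma adjusted p = 0.0317). Its values were 8.79 to 10.06 in BD LVT/OLPEEP and 9.89 to 10.38 in BD HVT/LPEEP, and Elf3 was not called without rat 16. Prss8, which encodes the membrane protease prostasin that acts on epithelial sodium channels, differed by -0.44 (limma adjusted p = 0.00439). In BD HVT/LPEEP Prss8 lay between 10.28 and 10.79 and in NBD HVT/LPEEP between 11.31 and 11.57, a log2 difference of -0.83 without overlap (SE 0.0808, limma adjusted p = 8.79e-07). The ventilation effects on Prss8, -0.44 in BD and 0.13 in NBD, differed by -0.57 without passing the test (limma adjusted p = 0.0865).

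Under HVT/LPEEP the E-box repressor gene Zeb2 was higher in BD than in NBD by 0.70 (limma adjusted p = 0.00199), with values of 12.05 to 12.39 in BD and 11.00 to 12.05 in NBD. Cldn7 and Ocln, whose promoters hold E-boxes, differed there by -0.02 and 0.06 and were not called. A link of either gene to Zeb2 was not tested. Mylk, the myosin light chain kinase whose activity contracts the actin ring at junctions, differed by -0.41 (adjusted p = 0.0438). Zeb2 is also expressed by macrophages and stromal cells. Under HVT/LPEEP 4 of 13 leukocyte markers were higher in BD and none was lower. Of all features 14.4% were called in either direction, and 8.5% were called lower, so the higher calls were the smaller part. The mean of the leukocyte list was -0.39 to 0.23 in NBD HVT/LPEEP and -0.05 to 0.38 in BD HVT/LPEEP, and its part in the Zeb2 difference was not tested. Endothelial cells also carry F11r. In the same comparison 5 of 17 endothelial markers were lower, beside 8.5% of all features, and none was higher. The list means were -0.16 to 0.30 in NBD HVT/LPEEP and -0.33 to 0.02 in BD HVT/LPEEP. The part of endothelial cells was not tested either.

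**Figure D5:**
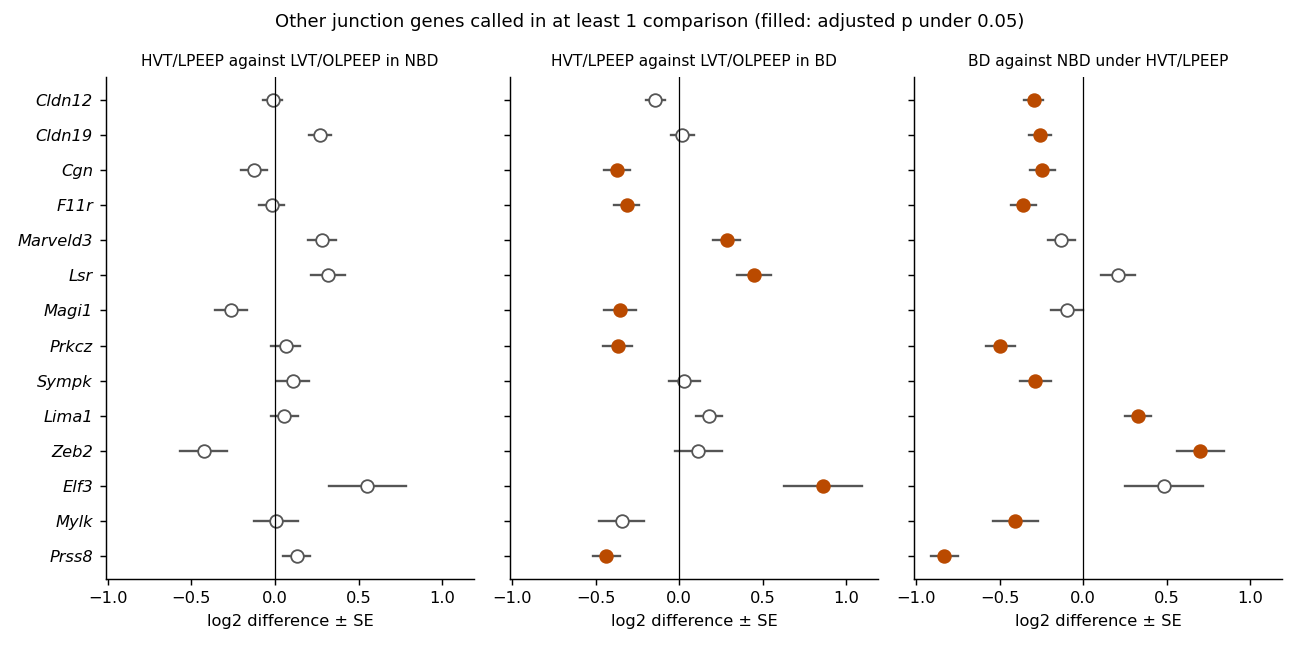
Log2 difference with SE (horizontal axis) of the 14 other junction genes and regulators called in at least 1 comparison, for ventilation in NBD, ventilation in BD and BD against NBD under HVT/LPEEP, where filled points have an adjusted p under 0.05. Lsr, Marveld3 and Elf3 are filled to the right for ventilation in BD, and Prss8 lies farthest to the left under HVT/LPEEP (-0.83).

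Beside the rise of Cldn7 in BD stood mixed changes of epithelial markers. Of 11 general epithelial markers, 2 were higher under HVT/LPEEP in BD (Krt8 and Epcam, the latter by 0.34) and 1 was lower (Nkx2-1, with a difference of -0.46). Their mean over the list was -0.23 to 0.03 in BD LVT/OLPEEP and -0.20 to 0.15 in BD HVT/LPEEP. Of the alveolar markers, 3 of 15 type I and 3 of 11 type II were lower and none was higher. Over all features, 2.85% were called higher and 2.82% lower in this comparison. Relative to the general epithelial mean of the same rat, the Cldn7 difference in BD was 0.44 (limma adjusted p = 0.0278) and that of Cldn4 0.54 (adjusted p = 0.135), on a scale where the median of all features moved by -0.09.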

How the data were processed

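Right lung RNA of 24 rats was hybridised to Affymetrix arrays, 1 per rat, with groups as labelled. The deposited values are on a log2 scale, made by the authors as 1 value per feature. Sorted values were identical on all arrays (maximum difference 0), so they were quantile-normalized; for background correction and probe summarisation the method was not given in the sources used here, and signal over background is unknown. Symbols came from the platform annotation (2647 features had none) and matched a current rat gene table for 7 of 7 members. R 4.3.3 and limma 3.58.1 fitted 4 group means to every feature (lmFit, eBayes, 20 residual degrees of freedom), two-sided, with Benjamini-Hochberg adjustment over all features. The fit was tested on simulated data. The members and lists were chosen with earlier results of these data known. Named were all members, up to 5 genes per list and contrast with the smallest p among those called, any called against the direction of most, and the 3 genes most correlated with each called member; Pkp1, Dsc3 and Cldn10 were named after their values were seen. Alternatives were another normalization, filters, weights, Holm's correction, which the methods name, and left-out rats. Promoter windows came from RefSeq (GRCr8). The labels name no batches, protein sequences were not analysed here, and the number of rats limits the precision.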

Additional observations from a re-analysis of the deposited data

Results flagged for a closer look

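A gap test for a value far from the other 5 of its group (Dixon, 95% level) was run on 28 sets of 6 rats, 7 members in 4 groups, and marked 2, where chance marks about 5%. Tjp1 in NBD HVT/LPEEP replicate 12 was 11.01, and the nearest rat of that group was at 12.18. Cdh1 in NBD LVT/OLPEEP replicate 5 was 12.38, and the nearest was at 11.91.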

How the results depend on the processing

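No paired analysis was possible because the 4 groups share no animal numbers. Repeated quantile normalization and leaving out the 40% dimmest features moved no call of a member. No member was called for the difference of ventilation effects or for BD against NBD under LVT/OLPEEP in any setting run. For BD ventilation, where 1 member was called, the count was 0 when only the 12 rats compared were fitted, without moderation and with Holm's correction, and 2 with array weights. It was 0 to 2 when rats were left out. With array weights 1173 features were called for BD ventilation, against 1091 in the main fit. For NBD ventilation the count of members was 1 with array weights instead of 0, where 50 features were called instead of 0. For BD against NBD under HVT/LPEEP, with 1 called, the count was 0 with a trended, robust fit, with Holm's correction, with animal number as a covariate and relative to epithelial markers, 3 without rats 12 and 16, and 0 to 2 when rats were left out. With only the 12 rats compared it stayed 1, with Cldn1 called in place of Cldn18. Without rats 12 and 16, 3174 features were called in this comparison, against 2771 in the main fit. For BD HVT/LPEEP against NBD LVT/OLPEEP, with 4 called, Cldn1 was lost without moderation (limma adjusted p = 0.0543), Tjp1 was gained with only 2 groups (0.0246), and Tjp1 and Cdh1 were gained with array weights (0.0259 and 0.0463). The count was 0 with Holm's correction and 1 to 5 when rats were left out. For BD LVT/OLPEEP against NBD HVT/LPEEP, with 0 called, it was 2 relative to epithelial markers (Cldn7 and Ocln) and 0 to 1 when rats were left out. Relative to epithelial markers 7396 features were called in this comparison, against 229 in the main fit. The averaged ventilation effect, with 2 called, gave 0 with Holm's correction, 5 relative to epithelial markers and 1 to 3 when rats were left out. Relative to epithelial markers 4571 features were called for this effect, against 1086 in the main fit. The averaged brain damage effect, with 1 called, gave 0 with Holm's correction and relative to epithelial markers, 3 with array weights and without rats 12 and 16, and 1 to 2 when rats were left out. Over all features 4209 were called for it with array weights and 2971 without rats 12 and 16, against 2474 in the main fit. Without rats 12 and 16, Cldn4 was called for BD ventilation (0.73, limma adjusted p = 0.0417) and Cldn7 was not (0.44, adjusted p = 0.0783), and Cldn1 (-0.57, adjusted p = 0.0286) and Tjp1 (-0.44, adjusted p = 0.0221) were called in BD against NBD under HVT/LPEEP. Differences smaller than their SE changed sign in several settings and were given no direction. Among larger ones, directions turned in 4 uncalled results: Tjp1 for NBD ventilation with array weights (0.0085), Cdh1 for NBD ventilation (-0.036) and Cldn18 for BD LVT/OLPEEP against NBD HVT/LPEEP (0.093) relative to epithelial markers, and Tjp1 for BD against NBD under HVT/LPEEP, which ranged from -0.44 to 0.0029 when rats were left out. The cause of these shifts was not tested. The fit of only the groups compared was not run for the averaged effects or the difference of effects.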
